A study of Mus musculus with 40 samples.

Results

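The midbrain of aSyn Tg mice at 15 mo was compared with that of Wt mice at 3 mo, so that the 2 groups differed in age and genotype together. The 2 groups held 20 of the 40 samples of the series, 10 inputs and 10 m6A immunoprecipitates, and were taken from the labels. The RNA table held 9 of their 10 input libraries, 4 of Wt 3 mo and 5 of aSyn Tg 15 mo, out of 19 libraries over all 4 groups. The m6A data were the consensus peak list of each group and the list of peaks that differed between them. Both kept values for whole groups only, so no spread between mice could be given for m6A.

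The aSyn Tg mice were described in the methods as male and homozygous for A30P alpha-synuclein under the Thy-1 promoter, a promoter active in neurons, on C57BL/6J. The Wt mice were C57BL/6J littermates. The remaining groups, Wt 15 mo and aSyn Tg 3 mo, held each genotype at the other age. The labels name the genotype as A30P alpha-synuclein and +/+ wild type. The strain name in the methods contains a Th promoter, which differs from the Thy-1 promoter of the text.

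The modification m6A is placed on mRNA by a writer complex around METTL3 and METTL14, removed by the erasers FTO and ALKBH5 and bound by reader proteins such as the YTHDF family. It lies mostly in the coding region, around the stop codon and in the 3′ UTR, often at a GGACT-like motif, and bears on splicing, export, translation and decay of the transcript. Alpha-synuclein is a presynaptic protein that accumulates in Parkinson disease, and the A30P substitution is one of its familial forms.

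The sequences below show the motif in peaks that were hypermethylated in aSyn Tg 15 mo, on Btbd2 and Vwc2. They also show it in 2 hypomethylated peaks, on Hdac5 and Gpatch8. These 2 were the only ones with it in the central window among the 42 hypomethylated peaks of a single block, the only ones searched. Whether the printed motif itself carries m6A was not measured. Each is read 5′ to 3′ on the strand of the transcript from RefSeq's GRCm38 genome, with GGACT in capitals and 10 bases on either side.
Btbd2: ggacagagtgGGACTagccttggat
Vwc2: ccaaggccgcGGACTggcaggtccg
Hdac5: aggaagaggaGGACTgcattcaggt
Gpatch8: tcaacagatgGGACTgaggatgcct
The first site lies at chr10:80643325-80643349 on the minus strand, in the 3′ UTR of Btbd2. The site on Vwc2, which encodes a secreted antagonist of bone morphogenetic proteins, lies in the coding region at chr11:11116224-11116248 on the plus strand. The sites on Hdac5, a class II histone deacetylase, and Gpatch8 lie in coding regions on the minus strand at chr11:102202126-102202150 and chr11:102478801-102478825. The peaks that hold them changed by a log2 fold change of 0.93, 0.76, -0.87 and -0.35 in the order shown.

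Input libraries 3 and 5 of aSyn Tg 15 mo stood apart. In library 3, Xist, the RNA of the inactive X chromosome of females, reached 525 CPM (reads scaled to a common library total), against 0 to 2.02 CPM in the other 18 libraries. The Y-linked genes Kdm5d, Uty, Ddx3y and Eif2s3y were at 0.396, 0.198, 0.198 and 0 CPM there, against 53.2 to 70.4, 36.6 to 49.5, 87.4 to 109 and 28.3 to 40.3 CPM elsewhere, so this library went against the stated male sex. In library 5, the ribosomal RNA gene Rn18s-rs5 reached 22039 CPM against 3184 to 9820 in the other 18 libraries, and the total of 2161940 reads was the lowest. The other libraries of the 2 groups held 3622966 to 9185647 reads. Counts of called genes are therefore also given without library 3, without library 5 and without both, settings of which the last was chosen after seeing the data. The m6A values, being pooled, could not be recomputed without the samples of those mice.

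The dissections could be set against midbrain markers. Th, the rate-limiting enzyme of dopamine synthesis, ranged from 57.5 to 97.5 CPM in Wt 3 mo and from 51.6 to 108 CPM in aSyn Tg 15 mo, and Slc6a3, the dopamine transporter, from 101 to 153 and from 84.7 to 172 CPM. Of the 14 dopaminergic markers tested out of 18 listed, 0 were called with all libraries, beside 1.09% of all genes tested. The count was also 0 without library 3 or without library 5, and Aldh1a1 was called lower without both. Ttr, the choroid plexus marker, stayed at or under 10.1 CPM in both groups. Because the tissue was measured in bulk, fewer cells of a type and less RNA per cell cannot be told apart in anything that follows.

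RNA levels differed in 117 of 10723 tested genes, 1.09% of them, with an adjusted p no higher than 0.05 and a difference of 1.2-fold or more (edgeR's quasi-likelihood test with Benjamini-Hochberg adjustment, here called the edgeR adjusted p). Of these, 75 were higher (0.699%) and 42 lower (0.392%) in aSyn Tg 15 mo. The higher genes held Thy1 and complement, interferon-induced, microglial and reactive astrocyte genes, and the lower genes held endoplasmic reticulum chaperones, heat shock proteins, neurofilaments and genes of oligodendrocytes. Values of the 2 groups did not overlap in 653 of the tested genes (6.09%) and in 115 of the 117 called genes, the test itself having chosen the latter. Without library 3 of aSyn Tg 15 mo 84 genes were called, 75 of them among the 117. Without library 5 there were 218 (116 of the 117), and without both 233 (109 of the 117).

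**Figure D1:**
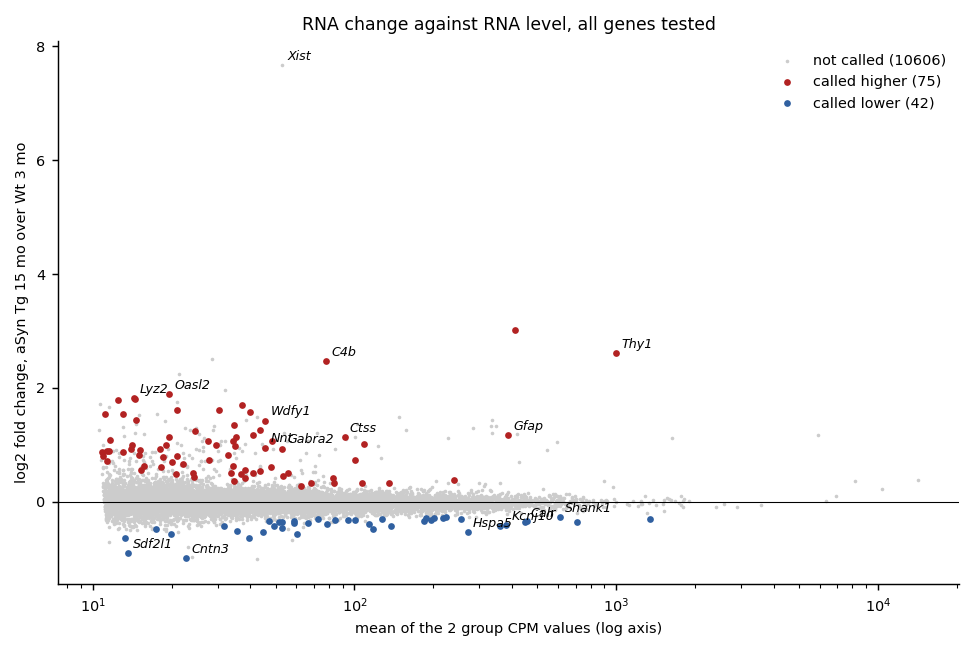
Each point is 1 of the 10723 genes tested, with the mean of both groups' CPM on a log axis and the log2 fold change of aSyn Tg 15 mo over Wt 3 mo on the other axis. Red points are the 75 genes called higher, blue points the 42 called lower, and the grey point near the top is Xist, which was high in 1 library and was not called.

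Thy1, which encodes a neuronal surface glycoprotein and whose promoter the methods give for the transgene, measured 285, 309, 260 and 275 CPM in Wt 3 mo libraries 2 to 5 and 1555, 1396, 1556, 2501 and 1549 CPM in aSyn Tg 15 mo libraries 2 to 6. The groups did not overlap, with library 5 the highest of its group, and Thy1 was 6.09-fold higher (log2 fold change 2.61 ± 0.15, edgeR adjusted p = 4.98e-07). Counts at Thy1 do not separate transcripts of the mouse's own gene from any that the transgene's promoter region gives. Sncb and Sncg, which encode beta- and gamma-synuclein, were not called.

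**Figure D2:**
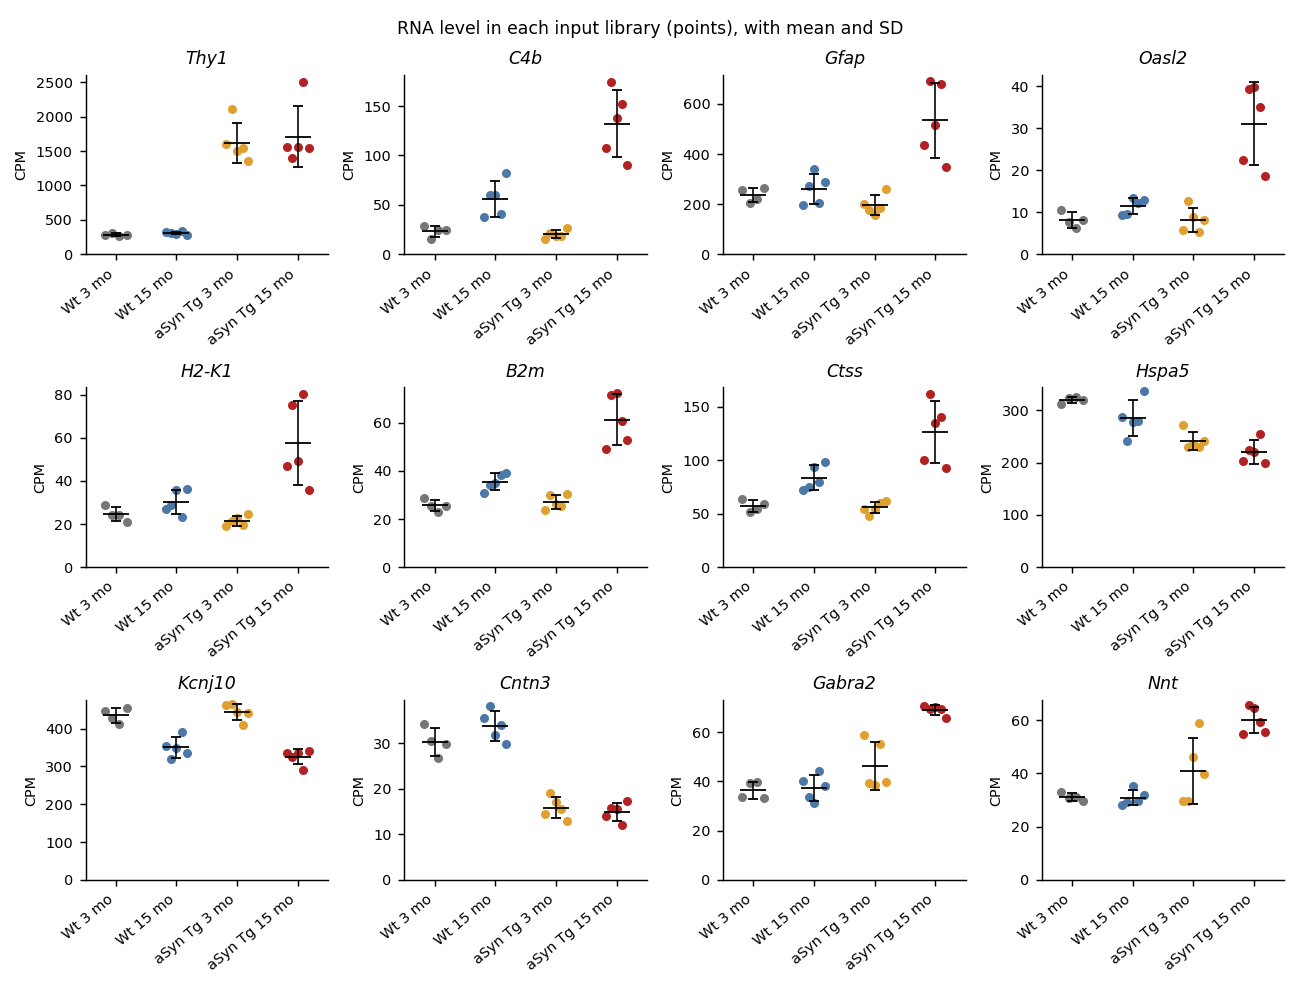
RNA level of 12 genes in CPM, 1 panel a gene with its own axis from 0; points are input libraries (4 of Wt 3 mo and 5 of each other group), the long bar is the mean and the whiskers the SD. Thy1 and Cntn3 split by genotype, Kcnj10 by age, and C4b, Gfap, Oasl2, H2-K1 and B2m are highest in aSyn Tg 15 mo.

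Interferon-induced genes, the antiviral and signalling genes that type I and II interferons switch on, were higher in aSyn Tg 15 mo. Among the 29 measured, 14 passed the level filter, and 10 of these were called higher and 0 lower: Oasl2, Ifit3, Ifit1, Ifit3b, Lgals3bp, Gbp3, Ddx58, Ifi27, Stat2 and Irf9. The median log2 fold change of the 14 was 1.08, beside 0.0048 for all genes tested. The filter took the mean over both groups, so a gene of low level could pass it through a high level in aSyn Tg 15 mo. Oasl2, Ifit3, Ifit1, Lyz2 and Trem2 passed here but not in the crossed pair described below. Such genes can raise the counts and medians of this list and the immune lists below, by an amount that was not tested. Oasl2, an oligoadenylate synthetase-like antiviral protein, measured 10.5, 7.67, 6.12 and 8.23 CPM in Wt 3 mo and 22.4, 39.4, 39.9, 35.2 and 18.7 CPM in aSyn Tg 15 mo. The groups did not overlap, and libraries 2 and 6 were the lower ones of aSyn Tg 15 mo, as they were for most immune genes described below. Oasl2 was 3.71-fold higher (log2 fold change 1.89 ± 0.25, edgeR adjusted p = 0.00172). Ifit3, Ifit1 and Gbp3, an interferon-induced GTPase, were 3.49-, 3.46- and 3.07-fold higher, with edgeR adjusted p of 0.00394, 0.0062 and 0.000464. Stat2 and Irf9, 2 subunits of the transcription factor that mediates the type I response, had log2 fold changes of 0.49 and 0.67. Of the list 7 genes were called without library 3, 13 without library 5 and 9 without both.

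Genes of class I and II antigen presentation followed. Of 8 tested members out of 20, the class I genes B2m, H2-D1, H2-K1 and Tapbp were called higher and 0 lower, with a median log2 fold change of 0.81. B2m, the invariant light chain of class I molecules, measured 28.9, 25.5, 23 and 25.2 CPM in Wt 3 mo and 49.3, 71.7, 72.3, 60.8 and 53.0 CPM in aSyn Tg 15 mo. Every aSyn Tg 15 mo library lay above every Wt 3 mo library, and the difference was 2.39-fold (log2 fold change 1.26 ± 0.12, edgeR adjusted p = 0.000198). The heavy chains H2-K1 and H2-D1 were 2.24- and 2.09-fold higher, with edgeR adjusted p of 0.013 and 0.00135, and Tapbp, which loads peptide onto them, 1.47-fold (0.0208). Reads of H2-K1 and H2-D1 may be shared, since the genes are closely alike. The count was 4 without library 3, 5 without library 5 and 4 without both, but 2 without Wt 3 mo library 3 or 5.

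Of 6 tested complement genes out of 13 in the table, 4 were called higher and 0 lower, C4b, C1qa, C1qb and C1qc, which act at the start of the classical pathway (median log2 fold change 1.05). C4b measured 28.5, 15.1, 24.7 and 24.2 CPM in Wt 3 mo and 107, 174, 138, 152 and 90.0 CPM in aSyn Tg 15 mo. The lowest aSyn Tg 15 mo value was over the highest Wt 3 mo value by a wide margin, and C4b was 5.52-fold higher (log2 fold change 2.46 ± 0.20, edgeR adjusted p = 1.97e-05). C1qa, C1qb and C1qc, the chains of the C1q recognition molecule made by microglia, were 2.55-, 2.19- and 1.97-fold higher, with edgeR adjusted p of 0.00501, 0.00611 and 0.00814. The 4 calls held without library 3, without library 5 and without both.

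Of 18 tested genes of microglia and myeloid cells out of 32, 8 were called higher and 0 lower, with a median log2 fold change of 0.49. Trem2, a lipid receptor of microglia, measured 6.06, 6.03, 7.45 and 6.11 CPM in Wt 3 mo and 16.6, 21, 19.9, 30.7 and 9.79 CPM in aSyn Tg 15 mo. The groups did not overlap, library 6 being the closest to Wt 3 mo, and Trem2 was 2.92-fold higher (log2 fold change 1.55 ± 0.25, edgeR adjusted p = 0.00814). Lyz2, a lysozyme of myeloid cells, and Laptm5, a lysosomal membrane protein of immune cells, were 3.53- and 2.00-fold higher (edgeR adjusted p = 0.00873 and 0.0066), and Mpeg1, a pore-forming protein of macrophages from outside that list, 2.99-fold (0.00155). The chemokine receptor Cx3cr1 had a log2 fold change of 0.50 (edgeR adjusted p = 0.0391). The homeostatic microglial markers P2ry12 and Tmem119 were at -0.05 and 0.16 and were not called, with means of 16.3 and 12.8 CPM in Wt 3 mo and 15.4 and 14.3 CPM in aSyn Tg 15 mo. The summed level of the 32 genes ran from 1295 to 1455 CPM in Wt 3 mo and from 1626 to 2290 CPM in aSyn Tg 15 mo. Without library 3, without library 5 and without both, 7, 11 and 9 of the list were called.

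Reactive astrocyte genes gave 4 calls among 6 tested of 22 listed, all higher: C4b, Serpina3n, H2-D1 and Gfap (median log2 fold change 1.12). The lists share members, so their counts are not separate. C4b is also in the complement list and H2-D1 in that of antigen presentation. C1qa, C1qb and C1qc are in the complement and microglial lists, and Ctss and Laptm5 in the microglial and lysosome lists. Gfap, the intermediate filament of astrocytes, measured 256, 206, 222 and 265 CPM in Wt 3 mo and 437, 691, 517, 679 and 348 CPM in aSyn Tg 15 mo. The groups did not overlap, libraries 3 and 5 being the highest, and Gfap was 2.26-fold higher (log2 fold change 1.17 ± 0.17, edgeR adjusted p = 0.00443). Serpina3n, a secreted protease inhibitor, was 3.06-fold higher (edgeR adjusted p = 0.00121). All 4 were called without library 3, without library 5 and without both. Among 16 genes of astrocyte homeostasis 1 was called, lower: Kcnj10, the potassium channel Kir4.1, at 445, 427, 412 and 455 CPM in Wt 3 mo and 336, 324, 334, 291 and 339 CPM in aSyn Tg 15 mo. Its groups were well apart, with a 1.33-fold lower level in aSyn Tg 15 mo (log2 fold change -0.41 ± 0.06, edgeR adjusted p = 0.00326), whereas Aqp4, Aldh1l1 and Gja1 were not called. The count of 1 held without library 3, without library 5 and without both.

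In the lysosome list 6 of 35 tested genes were called higher and 0 lower, at a median log2 fold change of 0.13. They were the cathepsins Ctss, Ctsz and Ctsd, the mannosidase Man2b1, the progranulin gene Grn and Laptm5. Ctsd, the main aspartic protease of lysosomes, measured 75.5, 80.8, 68.8 and 76.2 CPM in Wt 3 mo and 104, 131, 130, 165 and 97.9 CPM in aSyn Tg 15 mo. No value of one group fell within the other, and Ctsd was 1.65-fold higher (log2 fold change 0.73 ± 0.12, edgeR adjusted p = 0.00824). Ctss, the cathepsin of antigen-presenting cells, was 2.19-fold higher (0.00161), and Ctsz 2.10-fold (0.00121). The counts were 5, 8 and 8 without library 3, without library 5 and without both.

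The lower genes were led, as a group, by chaperones of the endoplasmic reticulum and the unfolded protein response. Of 23 tested members out of 25, 9 were called lower and 0 higher: Hspa5, Pdia6, Calr, Sdf2l1, Hsp90b1, Pdia4, Dnajb11, Xbp1 and Manf, with a median of -0.25 over the 23. Hspa5, the chaperone BiP, measured 312, 323, 325 and 320 CPM in Wt 3 mo and 203, 224, 221, 256 and 200 CPM in aSyn Tg 15 mo. The Wt 3 mo values lay close together and above all of aSyn Tg 15 mo, where Hspa5 was 1.45-fold lower (log2 fold change -0.54 ± 0.06, edgeR adjusted p = 0.0012). Calr, the calcium-binding chaperone calreticulin, and Pdia6, a disulfide isomerase, were 1.28- and 1.31-fold lower (edgeR adjusted p = 0.00508 and 0.00429), and Sdf2l1, a BiP cofactor, 1.87-fold (0.0112). Xbp1, a transcription factor of the unfolded protein response, had a log2 fold change of -0.33 (edgeR adjusted p = 0.0405). The count was 9 without library 3, 10 without library 5 and 12 without both, but 4 without Wt 3 mo library 2 or 5 and 5 without Wt 3 mo library 4 or without aSyn Tg 15 mo library 2 or 6. With the replicate number as a block it was 3. Of 15 tested heat shock genes Hsph1, an Hsp110 cochaperone, and Chordc1, an Hsp90-binding protein, were called lower, 1.35- and 1.39-fold (edgeR adjusted p = 0.00813 and 0.00392). The heat shock count was 2 without library 3 and 4 without library 5 or without both.

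Of 21 tested genes of oligodendrocytes and myelin 3 were called lower and 0 higher: Mal, a proteolipid of myelin membrane, Ugt8a, which makes galactocerebroside, and Ermn, a cytoskeletal protein of myelinating cells, by log2 fold changes of -0.30, -0.32 and -0.28. Mbp, a main myelin gene, was at 0.09 and was not called. Of 14 tested genes of oligodendrocyte precursors Olig2, a lineage transcription factor, and Gpr17, a receptor of cells about to differentiate, were called lower. Gpr17 measured 71.0, 67.4, 85.1 and 65.1 CPM in Wt 3 mo and 40.9, 56.7, 59.4, 42.2 and 41.9 CPM in aSyn Tg 15 mo, without overlap (1.48-fold lower, edgeR adjusted p = 0.042). These calls were not stable. The 3 of the myelin list became 2 without library 3 and 5 without library 5 or without both, but 0 without Wt 3 mo library 2 or 5, without aSyn Tg 15 mo library 2 or 6 and with the replicate number as a block, and 1 without aSyn Tg 15 mo library 4 or Wt 3 mo library 3 or 4. The 2 precursor calls became 1, 2 and 3 without library 3, without library 5 and without both. Gpr17 was not called when aSyn Tg 15 mo library 2 or 6, or any 1 of the 4 Wt 3 mo libraries, was left out (edgeR adjusted p up to 0.161), and Olig2 was not called without aSyn Tg 15 mo library 2, 3, 4 or 6, without Wt 3 mo library 4 or 5, nor with the block.

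Calls in the neuronal lists may be set against 1.09% of all genes tested. At that share, 0 of 52 genes does not set a list apart. Of 52 presynaptic genes 0 were called by edgeR, also without library 3, without library 5 and without both, and of 62 tested postsynaptic genes 2, Gabra2 higher and Shank1, a scaffold of the postsynaptic density, lower (log2 fold change -0.27, edgeR adjusted p = 0.0242). Gabra2 was called in each of these settings. Shank1 was not called in 9 of 21 alternatives, among them leaving out any 1 library other than aSyn Tg 15 mo library 5 (edgeR adjusted p up to 0.134). Of 18 genes of the cytoskeleton and axon, the neurofilament subunits Nefh and Nefm were 1.29- and 1.24-fold lower (edgeR adjusted p = 0.00814 for both), and the count was 2 without library 3 and 3 without library 5 or without both. Nefm was not called with the replicate number as a block or in a single fit of all 4 groups. Apln, a secreted peptide, was the only called gene of the granin and neuropeptide list, 1.44-fold lower, with library 5 of aSyn Tg 15 mo at 49.8 CPM within the Wt 3 mo range of 46.7 to 56.8 CPM and the other 4 at 33.0 to 34.9 CPM. Apln was not called without aSyn Tg 15 mo library 2, 3, 4 or 6, without Wt 3 mo library 2, 3 or 4, nor with the block. Protocadherins, the adhesion molecules that give neurons their surface identity, gave 4 calls of 19 tested, Pcdhb2, Pcdhb9, Pcdhb14 and Pcdhb17, all higher, by log2 fold changes of 0.44 to 0.89. The protocadherin count was 1 without library 3, 6 without library 5 and 4 without both, and 1 or 2 without any other single library (1 without aSyn Tg 15 mo library 2 or 4 or without Wt 3 mo library 2) and 1 with the block.

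The m6A machinery gave no calls. Of 11 tested writers, 2 erasers and 12 readers, 0 were called by edgeR, with all libraries and without library 3, without library 5 or without both. Over all genes tested 1.09% were called, so 0 among so few genes does not set them apart. Their log2 fold changes ran from -0.24 for Mettl16, a methyltransferase of structured RNAs, to 0.12 for Pcif1, the cap-adjacent methyltransferase. The groups did not overlap for Mettl16 (85.7 to 95.9 CPM in Wt 3 mo, 59.8 to 80.7 in aSyn Tg 15 mo). Nor did they for Pcif1 (46.6 to 50.5 and 50.9 to 53.9 CPM), as for 6.09% of all genes tested. The catalytic subunit Mettl3 measured 23.6, 24.9, 24.2 and 22.6 CPM in Wt 3 mo and 24.1, 22.4, 28.3, 27.1 and 24.7 CPM in aSyn Tg 15 mo, and the groups overlapped. The log2 fold changes of the erasers Fto and Alkbh5 were 0.08 ± 0.06 and 0.01 ± 0.05 (SE).

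**Figure D3:**
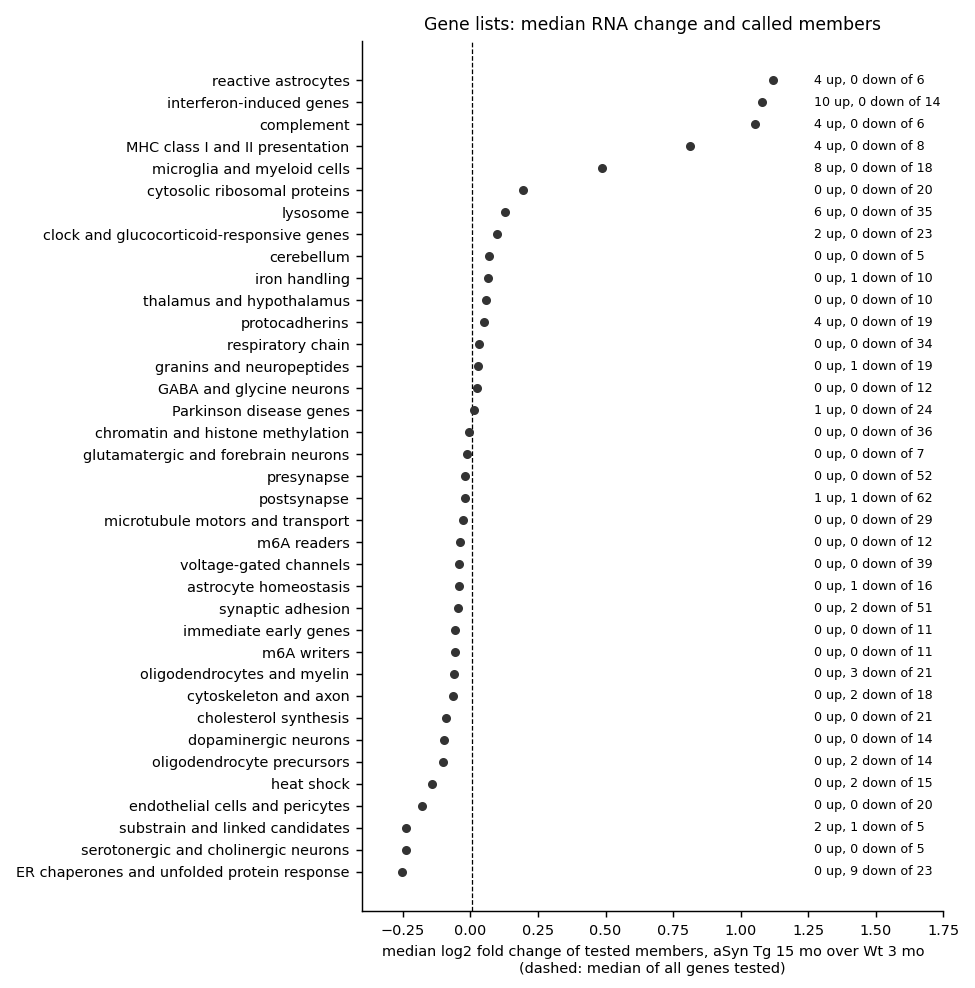
Points are the median log2 fold change of the tested members of each gene list with at least 5 of them, aSyn Tg 15 mo over Wt 3 mo, and the text at the right counts the members called up and down. The dashed line is the median of all genes tested. Lists of reactive astrocytes, interferon-induced genes, complement and class I and II presentation lie to the right, at 0.81 to 1.12, and endoplasmic reticulum chaperones at the far left, at -0.25.

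Some genes of other kinds had large and even differences. Gabra2, the alpha 2 subunit of the GABA-A receptor, measured 33.7, 39.2, 39.6 and 33.2 CPM in Wt 3 mo and 70.7, 69.1, 70.0, 69.4 and 65.8 CPM in aSyn Tg 15 mo. The latter 5 values were nearly equal, and Gabra2 was 1.91-fold higher (log2 fold change 0.93 ± 0.07, edgeR adjusted p = 1.42e-05). Wdfy1, an endosomal protein, Nnt, the proton-pumping transhydrogenase of mitochondria, and Cntn3, a neuronal adhesion molecule, were part of a list of genes known or suspected to differ between C57BL/6 substrains or to lie near them. Wdfy1 was 2.69-fold and Nnt 1.93-fold higher, and Cntn3 1.99-fold lower (edgeR adjusted p = 1.58e-07, 1.97e-05 and 0.000619). Nnt was at 29.5 to 33.0 CPM in Wt 3 mo and 54.9 to 65.6 CPM in aSyn Tg 15 mo, and its part in any other difference was not tested.

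Because age and genotype changed together, they cannot be told apart within this comparison. The 2 remaining groups form a crossed pair that shares no library with it, Wt 15 mo against aSyn Tg 3 mo, in which a gene that followed age would move the same way and a gene that followed genotype the opposite way. In that pair 99 of 11061 genes were called, 0.895%, 43 higher (0.389%) and 56 lower (0.506%) in Wt 15 mo. Of the 103 genes called in the main comparison and tested in both, 18 were called again, 17.5% of them and 18.6% of the crossed pair's calls. Of these 14 moved the same way: C4b, C1qa, C1qc, Ctss, Ctsz, Mpeg1, Cx3cr1, Abca1, Abca8a, Pcdhb9, Pcdhb14, Pcdhga2, Kcnj10 and Gpr17. The other 4, Thy1, Wdfy1 and Cntn3 among them, moved opposite ways. Without library 3, without library 5 and without both, 15, 21 and 20 genes were called in both, 4 of them moving opposite ways each time.

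C4b was at 56.0 ± 17.9 CPM in Wt 15 mo and 20.2 ± 4.25 CPM in aSyn Tg 3 mo (SD, n = 5 each), against 23.1 ± 5.69 CPM in Wt 3 mo (n = 4) and 132 ± 33.8 CPM in aSyn Tg 15 mo (n = 5). It was thus intermediate in Wt 15 mo, and its log2 fold change in the crossed pair was 1.48 (edgeR adjusted p = 0.00323). Kcnj10 was at 350 ± 26.8 CPM in Wt 15 mo and 444 ± 22.3 CPM in aSyn Tg 3 mo, close to the other group of the same age in each case (crossed log2 fold change -0.34, edgeR adjusted p = 0.00692). Cntn3 had a crossed log2 fold change of 1.09, the reverse of the main comparison at a similar size.

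Of the genes called higher in the main comparison, 49 of 61 tested in both had the same sign in the crossed pair, and of those called lower 23 of 42, beside 52.8% of all genes tested in both. The median log2 fold change of the 61 was 0.82 in the main comparison and 0.21 in the crossed pair, and of the 42 it was -0.37 and -0.03. These genes were chosen by their main values, so smaller medians would be found in libraries that the choice did not use. The interferon list, with a main median of 1.08, had a crossed median of 0.16 and 0 calls by edgeR there. The 2 medians are over different members, since each took those that passed the level filter in its own comparison. Oasl2, Ifit3 and Ifit1, among the largest rises, were not tested in the crossed pair. Lgals3bp, a secreted glycoprotein induced by interferon, was at 23.1 ± 4.57 CPM in Wt 15 mo and 18.2 ± 1.93 CPM in aSyn Tg 3 mo, not called (crossed log2 fold change 0.36, edgeR adjusted p = 0.188), against 17.8 and 56.5 CPM in Wt 3 mo and aSyn Tg 15 mo. Wt 15 mo stood apart in regional markers: Tph2, which makes serotonin in the raphe, was at 3.49 to 43.9 CPM there and 82.4 to 140 CPM in aSyn Tg 3 mo, while thalamic Tcf7l2 was at 163 to 314 against 64.6 to 200 CPM, and the part of this in the crossed pair was not tested. In the main comparison Tph2 was at 86.6 to 113 CPM in Wt 3 mo and 67.3 to 101 CPM in aSyn Tg 15 mo and was not called.

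**Figure D4:**
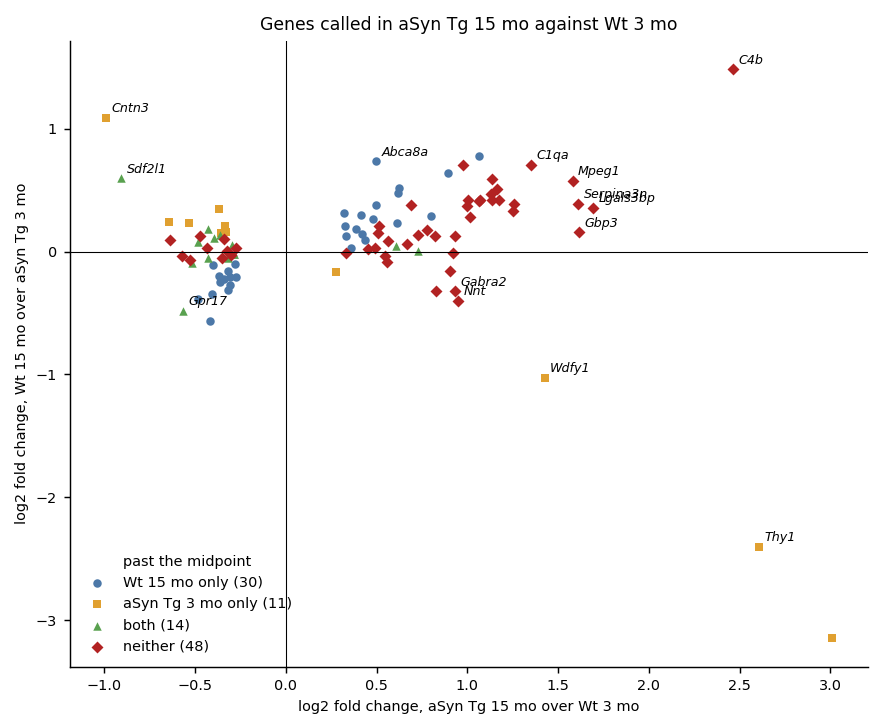
Each point is 1 of the 103 genes called in the main comparison and tested in both, with its log2 fold change of aSyn Tg 15 mo over Wt 3 mo on the horizontal axis and of Wt 15 mo over aSyn Tg 3 mo on the vertical axis. Symbols give which of the 2 other groups lay past the midpoint on the aSyn Tg 15 mo side; Thy1 sits at the lower right and C4b at the upper right.

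The other groups were also placed beside the called genes gene by gene. A group was placed on the aSyn Tg 15 mo side of a gene when its mean log2 CPM lay past the midpoint of the 2 compared groups. Of the 117 called genes, Wt 15 mo alone was on that side in 31 (26.5%), aSyn Tg 3 mo alone in 11 (9.40%), both in 14 (12%) and neither in 61 (52.1%), against 22.4%, 17.9%, 26.7% and 33.1% of all genes tested. The groups that set the midpoint also chose the called genes, and the part of that choice in these shares was not tested. The share with neither was 46.4% of 84 called genes without library 3 (34.5% of all tested) and 42.7% of 218 without library 5 (29.1%). Without both it was 29.6% of 233, close to the 29.96% of all genes tested, so the excess over all genes was not seen there. Among the 75 higher genes, neither group was past the midpoint in 51 (68.0%), which took in Oasl2, Ifit3, B2m, H2-K1, Gfap, Serpina3n, Trem2 and Gabra2. Among the 42 lower genes this was so in 10 (23.8%), such as Hsph1, Mal and Heph. The 9 called endoplasmic reticulum genes were divided: Hspa5, Calr, Hsp90b1 and Xbp1 had only aSyn Tg 3 mo past the midpoint, Sdf2l1, Pdia4, Pdia6 and Manf had both groups past it and Dnajb11 neither. Hspa5 was at 242 ± 17.7 CPM in aSyn Tg 3 mo and 285 ± 34.5 CPM in Wt 15 mo. Nefh, Nefm and Shank1 had only Wt 15 mo past it. Of the substrain list, Wdfy1 and Cntn3 had only aSyn Tg 3 mo past the midpoint, whereas Nnt, like Gabra2, had neither group past it. For Nnt and Gabra2, aSyn Tg 3 mo was thus not on the side of aSyn Tg 15 mo, although both carry the transgene. Any part of genetic background in this was not tested.

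The m6A consensus lists held 13860 peaks on 7357 genes in Wt 3 mo and 13027 peaks on 7115 genes in aSyn Tg 15 mo. Peaks overlapping by at least 1 base in the other list made up 80.3% and 88.6% of them, and 6625 of the 7847 genes with a peak in either group had one in both. Peaks found in 1 list only had lower fold enrichment of immunoprecipitate over input (median 3.57 in Wt 3 mo and 3.92 in aSyn Tg 15 mo) than shared peaks (4.99 and 5.38). Over the shared peaks, the median log2 ratio of fold enrichment of aSyn Tg 15 mo over Wt 3 mo was 0.13, with 63.1% higher in aSyn Tg 15 mo. The aSyn Tg 15 mo list is on a sheet without a group name and was assigned by elimination.

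The list of differential peaks held 605 peaks within an FDR of 0.05 and 1.2-fold or more apart, out of 723 listed. Of these 528 were gained in aSyn Tg 15 mo (hypermethylated) and 77 lost (hypomethylated), on 558 genes, of which 482 had gains only, 67 losses only and 9 both. The share of genes with a consensus peak that carried a gain was 6.14%, and 0.943% carried a loss. The gains were small, with a median log2 fold change of 0.41 (1.33-fold), and 77 of them reached 1.5-fold and 11 reached 2-fold. The losses had a median of -0.61, and 42 of 77 reached 1.5-fold.

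Gained and lost peaks had different widths and strengths. Gained peaks had a median width of 570 nt and a median fold enrichment of 5.20 over both groups, against 331 nt and 2.12 for lost peaks. Of the 528 gained peaks 456 overlapped a consensus peak of both groups and 53 one of aSyn Tg 15 mo only, whereas of the 77 lost peaks 19 overlapped both and 40 one of Wt 3 mo only. In the 450 gained peaks with a consensus peak in all 4 groups, the median fold enrichment was 5.36 in Wt 3 mo, 6.29 in Wt 15 mo, 6.08 in aSyn Tg 3 mo and 7.29 in aSyn Tg 15 mo. The peaks were chosen as low in Wt 3 mo and high in aSyn Tg 15 mo, so groups that the choice did not use would fall between these without any difference of their own. In the 19 such lost peaks the medians were 3.89, 3.43, 3.5 and 2.93 in the same order.

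**Figure D5:**
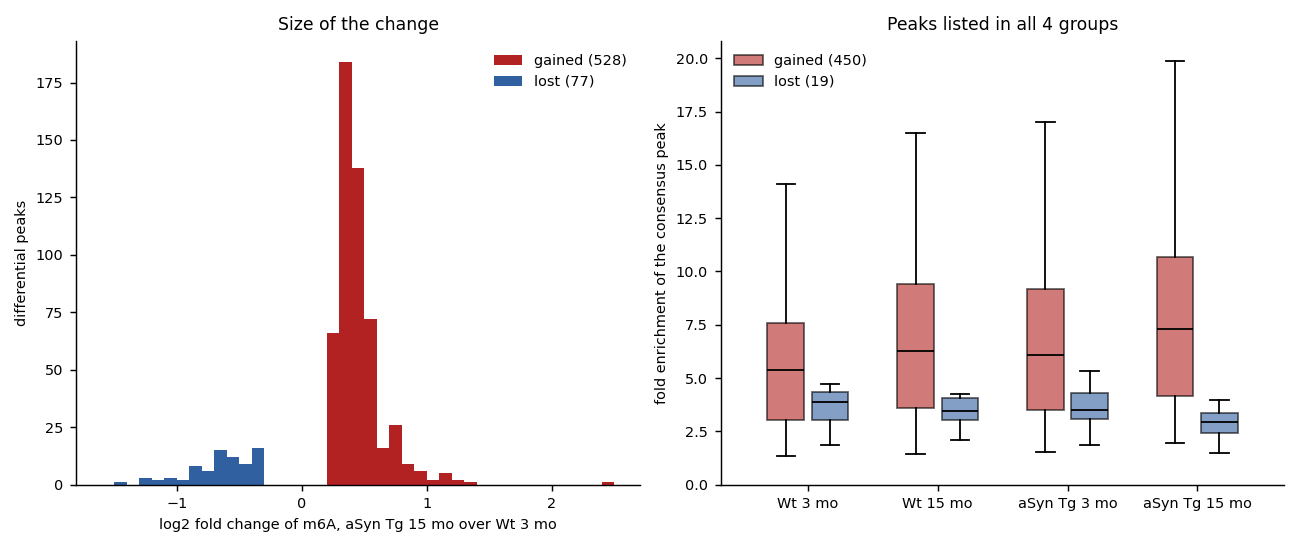
Left, number of differential m6A peaks by log2 fold change of aSyn Tg 15 mo over Wt 3 mo, 528 gained in red and 77 lost in blue, with none between the limits of a 1.2-fold change. Right, fold enrichment of the consensus peak in each group for the differential peaks listed in all 4 groups (box from the first to the third quartile, line at the median, whiskers to the last value within 1.5 times the box, values beyond it not drawn); the gained peaks run from a median of 5.36 in Wt 3 mo to 7.29 in aSyn Tg 15 mo.

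Thy1 was among the genes with the largest gains. A peak in the 3′ UTR of Thy1 at chr9:44047861-44047951 had a log2 fold change of 2.43, and one at its stop codon (chr9:44047413-44047682) of 1.38. In the crossed pair the same places had -2.35 and -1.53, that is, higher m6A in aSyn Tg 3 mo, the group that carries the transgene. The RNA of Thy1 was many-fold higher in aSyn Tg 15 mo, as given above, and its part in these peaks was not tested. Gains of similar size lay on Susd5, at 1.30, and on peaks in the 5′ UTR of Bdh1, a ketone body dehydrogenase, Arglu1, a splicing coactivator, Rnf157, a ubiquitin ligase, and Scaf8 at 1.16, 1.12, 1.11 and 1.11. The RNA of Bdh1, Arglu1, Rnf157 and Scaf8 was not called, with log2 fold changes of -0.06 to 0.08, nor was that of Susd5, at -0.36 (edgeR adjusted p = 0.337).

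The largest losses were those of Apln at -1.50, Trak1, an adaptor of mitochondrial transport, at -1.28, Ormdl3, a regulator of sphingolipid synthesis, at -1.24 and Pcgf3, a Polycomb subunit, at -1.23. Stx16, a syntaxin of the Golgi, Scyl2 and Nfasc, an adhesion molecule of the axon initial segment, followed at -1.12, -1.10 and -1.03. Of these 7 genes Apln was called lower in RNA as well, and Trak1, Ormdl3, Pcgf3, Stx16, Scyl2 and Nfasc were not called.

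Of 39 genes of the presynapse with a consensus peak 12 had a gained peak, where 6.14% of all genes with a consensus peak had one, and 0 a lost one, where 0.943% had one. These shares are not matched for RNA level. Gained and lost peaks lay on genes with median mean input counts of 809 and 837. For shared consensus peaks these were 267 (Wt 3 mo) and 268 (aSyn Tg 15 mo), and the part of level in the list counts was not tested. The presynaptic gains were on genes including Bin1, Dnm3, Napb, Nsf, Rims1, Rph3a, Snap91, Sv2a, Sv2c, Syn1 and Synj1. The gain on Snap91, a clathrin adaptor of synaptic vesicles, was 0.83 in its 5′ UTR, where aSyn Tg 15 mo had a peak of fold enrichment 1.99 and the other groups had no consensus peak. Nsf, the ATPase that takes SNARE complexes apart, had 0.54, and Syn1, the vesicle phosphoprotein synapsin, 0.35. Sncb gained 0.46 in its 5′ UTR.

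Of 57 postsynaptic genes with a peak 9 had a gain, among them the receptor subunits Gria2 (0.45) and Grin1 (0.33), and 1 a loss, the scaffold Shank3 (-0.46). Of 36 voltage-gated channel genes 8 had a gain and 1 a loss, Scn8a, which carried both a gained peak (0.57) and a lost one (-0.69) in its 3′ UTR. Of 16 genes of the cytoskeleton and axon 7 had gains and 0 losses, including the ankyrins Ank2 (0.32) and Ank3 (0.30), and of 11 astrocyte homeostasis genes 5 and 0, including Gja1, the gap junction protein connexin 43, at 0.26. Among 34 chromatin genes 7 had gains and 3 losses, the losses on Ehmt2, Kmt2a and Smarca4 at -0.44, -0.71 and -0.63. In the immune lists 0 of 11 microglial genes and 0 of 5 complement genes with a peak had a differential one, 1 of 9 interferon-induced genes had a gain, and H2-D1 had a loss, as 1 of 4 genes of antigen presentation and 1 of 5 of reactive astrocytes. These counts may be set against 6.14% and 0.943% of all genes with a consensus peak, shares that are not matched for RNA level.

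On the m6A machinery itself, gains lay on 1110037F02Rik (the writer subunit Virma) at 0.46, Zc3h13, another writer subunit, at 0.27 and the eraser Alkbh5 at 0.49, and a loss lay on the reader Hnrnpa2b1 at -0.39. The Alkbh5 peak, in its coding region, had a fold enrichment of 1.78 in Wt 3 mo, 2.02 in Wt 15 mo, 3.29 in aSyn Tg 3 mo and 3.52 in aSyn Tg 15 mo.

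By place on the transcript, 13.0% of the 470 gained peaks that could be placed had their centre in the 5′ UTR, 52.3% in the coding region, 12.3% within 100 nt of the stop codon and 22.3% in the 3′ UTR. The consensus lists had 6.55% (Wt 3 mo) and 6.89% (aSyn Tg 15 mo) in the 5′ UTR and 13.9% at the stop codon in both. Of 72 lost peaks placed, 1 lay in the 5′ UTR (1.39%), 66.7% in the coding region, 5.56% at the stop codon and 26.4% in the 3′ UTR.

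The motif GGACT on the transcript's strand was found in the central 100 nt of 15.5% of 297 single-block gained peaks, with its reverse complement in 7.74%. In the consensus peaks it was in 19.9% (8.66%) for Wt 3 mo and in 21.8% (8.33%) for aSyn Tg 15 mo. Of 42 single-block lost peaks 2 had it (4.76%) and 6 had its reverse complement (14.3%), so the reverse complement was the more common there. The motif sites of Btbd2, Vwc2, Hdac5 and Gpatch8 printed above are from these peaks.

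The crossed pair's m6A list held 90 peaks at the same limits, 50 higher and 40 lower in Wt 15 mo, and 27 of them (30%) lay at 27 of the 605 main peaks (4.46%). At the 19 gained peaks 14 were higher in Wt 15 mo and 5 in aSyn Tg 3 mo, 3 of the 5 being on Thy1. Gains that were also higher in Wt 15 mo included those on Slco3a1 (0.97 and 0.89), the synaptic scaffold Nbea and the RNA-binding protein gene Qk. At the 8 lost peaks 5 were higher in Wt 15 mo, as on Kcnj9, a potassium channel gene, at -0.92 in the main comparison and 0.68 in the crossed pair.

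Of 536 genes that had a differential peak and passed the RNA filter, 16 were called in RNA (2.99%, against 1.09% of all genes tested). These shares, and those that follow, were not matched for RNA level. Without library 3, without library 5 and without both, 14, 19 and 22 of 537 were called (2.61%, 3.54% and 4.10%, against 0.787%, 1.97% and 2.11% of all genes tested). A gain and higher RNA were found on genes including Thy1, Ctsd, Igfbp5, a binding protein of insulin-like growth factors, and Bhlhe41, a clock repressor. A gain and lower RNA were found on 9 genes: Nefm, Nefh, Gpr17, Calr, Kcnj10, Mal, Hspa5, Ermn and Shank1. The m6A values are ratios to the input libraries, so the 2 measures share the input and are not independent. The part of this in the directions given here was not tested. H2-D1 had a lost peak (-1.01) with higher RNA, and Apln a lost peak with lower RNA. The Hspa5 peak at its stop codon had a fold enrichment of 8.22 in Wt 3 mo and 10.9 in aSyn Tg 15 mo (log2 fold change 0.30), beside the RNA log2 fold change of -0.54. On Nefm the consensus peak went the other way, with a fold enrichment of 3.72 in Wt 3 mo and 2.53 in aSyn Tg 15 mo beside a listed gain of 0.40, as did 16 of the 456 gained peaks with a consensus peak in both groups (3.51%). Over all 465 genes whose largest change was a gain, the median RNA log2 fold change was -0.03, and over the 71 whose largest was a loss it was also -0.03.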

How the data were processed

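Midbrain RNA of both genotypes, taken at 3 mo and 15 mo, was depleted of ribosomal RNA, fragmented and divided into input and m6A immunoprecipitate. The authors aligned reads with STAR to mm10, counted input reads per gene with featureCounts and deposited a signal per gene, the read count divided by a size factor from DESeq2. The submitters' processing notes name DESeq and mm9, and the peak coordinates fit the chromosome lengths of GRCm38. The authors called peaks with MeTPeak, deposited as fold enrichment (a ratio), and tested differential peaks with exomePeak, deposited as a log2 fold change and a score, the log10 of the FDR, by the authors. Both columns of the differential lists were used because they define the comparison. The labels name a small RNA kit and the methods other kits. Other comparison columns were not used.

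Whole reads were recovered by dividing by each library's step: 100% of 392401 values were whole within 0.01. For aSyn Tg 15 mo, 2 libraries whose step lay close to that of unscaled reads were taken from a second table, which gave the same reads. The 10 library columns that repeated a library were not used, and 1447 genes of low level that the second table does not list were left out. Depth in the 9 libraries was 2161940 to 9185647 reads. edgeR 4.0.16 (R 4.3.3; TMM, quasi-likelihood, Benjamini-Hochberg) tested genes whose mean normalized count was 50 or more. Alternatives used DESeq2 1.42.0 and limma 3.58.1, other scalings and filters, factors of unwanted variation, left-out libraries and other peak limits. The design had assumed raw counts, and the same test was used on the recovered reads. The scripts were tested on simulated data. Peaks were placed on transcripts of GENCODE's basic annotation, and sequences were read from RefSeq's GRCm38 genome (pysam 0.24.0, pandas 2.3.3). Nothing says whether samples numbered alike were paired. No 2 libraries agreed within sampling noise.

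The members and the 42 gene lists were chosen with earlier results of these data known. Named genes were Thy1, the m6A machinery, the 12 called genes with the largest change in each direction (predicted genes, pseudogenes and clone names left out), up to 4 called genes per list and direction by adjusted p, the 8 peaks with the largest gain and the 8 with the largest loss on genes with a mean input count of 50 or more, up to 2 of each per list, and up to 12 genes with both a called RNA and a differential peak. Sequences were taken from the 3 largest gains and 3 largest losses whose window holds the motif, outside chromosome 18. Other names were chosen after their values were seen. Some genes that these rules name are not reported here.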

Additional observations from a re-analysis of the deposited data

Results flagged for a closer look

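Among 57 named genes in the 2 groups, 114 groups of 4 or 5 libraries were looked at for a library far from the others of its group, and 10 were found, where chance gives about 1 in 20. Of these 3 were in library 5 of aSyn Tg 15 mo, the library of lowest depth: Thy1 at 2501 CPM against at most 1556 in the other 4, Apln at 49.8 CPM against at most 34.9, and Dbp, a clock-controlled transcription factor, at 48.7 CPM against at most 34.1. Lyz2 was at 37.4 CPM in library 3 of aSyn Tg 15 mo, the library with Xist reads, against at most 20.6 in the other 4. Dnah5, a dynein of motile cilia, was lowest in aSyn Tg 15 mo library 2, at 9.02 CPM against at least 10.4.

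In Wt 3 mo, library 2 was the high one for Heph, a ferroxidase, at 26.4 CPM, for H2-D1 at 34.0 CPM and for Pcdhb2 at 8.72 CPM, against at most 23.4, 30.3 and 7.44. Trem2 was highest in library 4 at 7.45 CPM against at most 6.11, and Laptm5 was lowest in library 3 at 16.4 CPM against at least 20.7. None of these was given an explanation.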

How the results depend on the processing

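Of the 57 called genes followed through the alternatives, 0 changed sign. The crossed pair's split of 43 higher and 56 lower turned round with 1 factor of unwanted variation (186 and 165) and without aSyn Tg 3 mo library 3 (17 and 15) or 4 (13 and 11). The 117 genes called in aSyn Tg 15 mo against Wt 3 mo became 176 with DESeq2, 203 with a mean count of at least 10, 224 with a total of at least 10 counts, 213 with edgeR's filterByExpr, 364 and 417 with 1 and 2 factors of unwanted variation, 59 at a fold change of at least 1.5 and 233 without both aSyn Tg 15 mo libraries 3 and 5; all 117 were among the calls with DESeq2 and with either number of factors. Leaving out 1 library gave 62 to 218, the highest without aSyn Tg 15 mo library 5, 62 to 73 without a library of Wt 3 mo, and 74 and 73 without aSyn Tg 15 mo libraries 2 and 4. The 99 genes of the crossed pair became 208 with DESeq2, 153 with a total of at least 10 counts, 150 with filterByExpr, 351 and 488 with 1 and 2 factors, 181 in a single fit of all 4 groups and 37 at 1.5-fold, and 24 to 341 with 1 library left out (341 without Wt 15 mo library 3). The 605 differential peaks became 119 at 1.5-fold, of which 64.7% were gains instead of 87.3%, and 380 at an FDR of at most 0.01. Peaks shared between the consensus lists were 69.2% (Wt 3 mo) and 73.6% (aSyn Tg 15 mo) when at least 50% of both peaks had to overlap, and 81.5% and 85.1% among peaks of fold enrichment of at least 3. With windows of 200 nt, 22.8% of gained peaks lay at the stop codon and 31.3% held the motif. Most values of the main results moved under the alternatives: 38 moved and 22 stayed the same. Counts were taken as moved beyond 1.5 times, and percentages when outside the Wilson confidence interval of the main value. Of the single-gene and list values under the alternatives, 1210 were single-gene calls that were kept or list counts that stayed within 1.5 times. Another 135 were single-gene calls no longer made, and 34 list counts moved by over 1.5 times. The causes were not tested.

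Correlations of same-numbered libraries were -0.03, -0.11, 0.05 and 0.11, within the range of -0.181 to 0.145 of differently numbered ones. So few values cannot show whether samples numbered alike were paired. With the replicate block 63 genes were called, 58 of them among the 117, and the endoplasmic reticulum list fell to 3 calls. Depth and 4 libraries of Wt 3 mo limit what could be called, and genes under a mean count of 50 were not tested. No m6A value has an error between mice.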

Other observations

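Some called genes belonged to none of the lists and were picked after their values were seen. Higher in aSyn Tg 15 mo were Csf1, the growth factor of macrophages and microglia (log2 fold change 0.55, edgeR adjusted p = 0.0073), Irf8, a transcription factor of myeloid cells (1.09), Itgb2, the beta chain of leukocyte integrins (1.43), A2m, a broad protease inhibitor (1.06), Il33, a cytokine of glia (0.33), and Srebf1, a regulator of lipid synthesis (0.33). Lower were Ptch1, the hedgehog receptor (-0.28), and Slc5a3, the myo-inositol transporter (-0.34). From the list of clock and glucocorticoid-responsive genes, Dbp, whose RNA follows the time of day, was at 20.8 ± 2.59 CPM in Wt 3 mo (n = 4). It was at 32.5 ± 3.69, 32.4 ± 6.82 and 34.9 ± 8.05 CPM in Wt 15 mo, aSyn Tg 3 mo and aSyn Tg 15 mo (SD, n = 5 each). It was called higher in aSyn Tg 15 mo, and in the crossed pair its log2 fold change was 0.01, without a call. The call was lost in 7 of 21 alternatives, among them leaving out any 1 Wt 3 mo library (edgeR adjusted p up to 0.121). Cirbp, a cold-inducible RNA-binding protein, had log2 fold changes of 0.61 (called) and 0.05 (not called) in the same 2 comparisons.

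Some lists without calls by edgeR lay mostly to one side of the median of all genes tested. For cytosolic ribosomal proteins 18 of 20 tested were above it, with a summed level of 891 to 991 CPM in Wt 3 mo and 1007 to 1407 CPM in aSyn Tg 15 mo. For cholesterol synthesis 18 of 21 were not above it (1339 to 1375 and 1258 to 1391 CPM), and for endothelial cells and pericytes 16 of 20 (1013 to 1163 and 936 to 1041 CPM).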
